A study of Homo sapiens with 8 samples.

Results

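The metallothionein genes MT1A, MT1E, MT1F, MT1G, MT1L, MT1M, MT1X and MT2A were followed through 4 conditions of IMR90 cells, a line of human lung fibroblasts. They were taken by gene symbol and make up 8 of the 28265 genes in the count tables. The set was selected on the exonic counts themselves, by the change of MT1E from below control at 3 days to above it at 6 days of treatment, so every comparison among control, 3 days and 6 days is given for the members as a description, without a p-value, and supports nothing. The study asked how the small molecule inflachromene (ICM), which binds the chromatin proteins HMGB1 and HMGB2, brings proliferating fibroblasts into a senescence-like state, and read transcription by factory RNA-Seq, a method for RNA attached to transcription sites.

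All 8 libraries came from IMR90 at low passage, with 2 libraries in each of 4 groups. Control cells were labelled young and no vehicle was given for them in the labels. The other groups had received ICM for 3 days, had received ICM for 6 days, or were labelled MetaICM. What the label MetaICM stands for was not found in the sources used here, nor was a dose or duration. The labels describe whole-cell lysis and poly(A) selection, so mature RNA may be part of the exonic counts used here. Nothing in the labels says that the 2 libraries of a group were separate cultures, so the spread between them may be technical.

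Between 12095123 and 23166405 read pairs were counted per library. A count of 3, taken as the floor for detection, was worth 0.129 to 0.248 CPM (a count scaled to a common library total). Fibroblast markers summed to between 10950 and 23290 CPM and all 9 of them had counts. Their sum was lowest at 6 days, at 10950 and 11320 CPM, against 23130 and 23290 CPM in control. Markers of other cell types were low, with epithelial markers at 1.02 to 2.18 CPM and endothelial markers at 1.43 to 4.94 CPM. The immune list was at 4.55 and 6.01 CPM in the control libraries, between 16.9 and 21.2 CPM under ICM, and at 13.1 and 13.3 CPM in MetaICM. Most of this was CD68, while CD3E was at 0 in every library. The part of these markers in the metallothionein results was not tested.

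Metallothioneins are small, cysteine-rich proteins that bind zinc and copper and can take up toxic metals such as cadmium. Their genes are switched on by the zinc-sensing transcription factor MTF1, which binds metal response elements (MREs) in their promoters, and several also respond to glucocorticoids and to oxidative stress. MT2A is the most widely expressed form in human tissues, and the MT1 genes are duplicates of a common ancestor.

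All 8 genes lie in a single cluster on chromosome 16 (GRCh37), chr16:56642496-56718108, which spans 75.6 kb. MT2A is at its left end and MT1X at its right end, and all are on the plus strand except MT1G. The annotation holds MT1L as a transcribed unprocessed pseudogene and the other members as protein-coding genes. No member shares exon bases with another gene. Their likeness matters for counting, since a read that fits several places was discarded. The spliced transcript of MT1E was 77.7% identical to that of MT2A and 85.3% identical to that of MT1M. The second of the 3 exons, which is coding in the protein-coding members, shows how close the detected genes are. It is printed here for the 4 detected genes, 5′ to 3′ on the plus strand of GRCh37, with capitals at the bases that differ from MT2A.
MT2A: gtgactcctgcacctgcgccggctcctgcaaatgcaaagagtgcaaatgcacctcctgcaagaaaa
MT1E: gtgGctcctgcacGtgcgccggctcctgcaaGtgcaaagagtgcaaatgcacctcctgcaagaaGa
MT1X: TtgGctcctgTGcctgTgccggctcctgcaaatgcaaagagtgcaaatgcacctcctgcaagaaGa
MT1L: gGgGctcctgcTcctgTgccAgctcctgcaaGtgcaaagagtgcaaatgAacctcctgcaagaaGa

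These 66 bases lie at chr16:56642904-56642969 in MT2A, chr16:56660378-56660443 in MT1E, chr16:56717077-56717142 in MT1X and chr16:56652091-56652156 in MT1L. MT1E differed from MT2A at 4 positions, MT1X at 6 and MT1L at 8. A position was taken as unique where its stretch had at most 1 exact match in the genome and none in another spliced metallothionein transcript. Stretches across a splice junction need not match the genome. At 50 bases 89.2% of the positions of the spliced MT2A transcript and 90.0% of those of MT1E were unique. The share was 79.7% for MT1X and 98.7% for MT1L. At 100 bases every position of all 8 members was unique. The read length was not given in the sources used here, and matches with mismatches were not counted, so the loss of pairs to near-identical copies could differ between members.

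The promoter of MT2A is shown because this gene carried most of the signal. The 250 bases before its annotated start are printed 5′ to 3′ (plus strand, GRCh37, chr16:56642246-56642495), with capitals at matches to the MRE core TGCACNC or TGCGCNC on either strand.
MT2A: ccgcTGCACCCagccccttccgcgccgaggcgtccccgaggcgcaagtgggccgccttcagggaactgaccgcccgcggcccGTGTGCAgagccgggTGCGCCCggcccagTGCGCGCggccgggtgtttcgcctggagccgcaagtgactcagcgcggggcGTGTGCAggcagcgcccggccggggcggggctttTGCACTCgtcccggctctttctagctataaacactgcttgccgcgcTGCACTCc

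The MT2A window held 7 MRE matches. The same window held 1 match in MT1A, 3 in MT1M, 4 each in MT1L and MT1X, 5 in MT1G and 6 in MT1F. The window of MT1E is not reported here. Of all 27820 promoter windows of this length, 26.6% held at least 1 match. The letters TGACNNNGC, the core of the antioxidant response element, were found once in MT2A, once in MT1X and in 11.2% of all windows. These matches describe the sequence and not the binding of a factor.

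Only 4 of the 8 members were detected above the floor, namely MT2A, MT1E, MT1X and MT1L, and these passed the count filter in all 6 comparisons. MT1F and MT1M had 0 counts in every library. MT1G had 2 counts in control replicate 2 and none elsewhere. MT1A had 1 count in each 3-day library and 1 in MetaICM replicate 1. These 4 genes were thus at or below the floor, and no fold change was computed for them. Another 12 metallothionein loci were looked for, of which 8 were in the tables and only MT1B had a count, a single pair at 6 days. Per kilobase of exon, MT2A stood at 127 CPM in control and was the highest member in every group. MT1E stood at 12.9 CPM per kilobase in control, MT1X at 3.76 and MT1L at 1.67. The exon length of MT1E, 746 bases, includes a retained intron, while its spliced form has 398 bases, so its level per kilobase is understated where the intron is removed. In bulk RNA a lower level in each cell and a smaller number of expressing cells cannot be told apart.

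**Figure D1:**
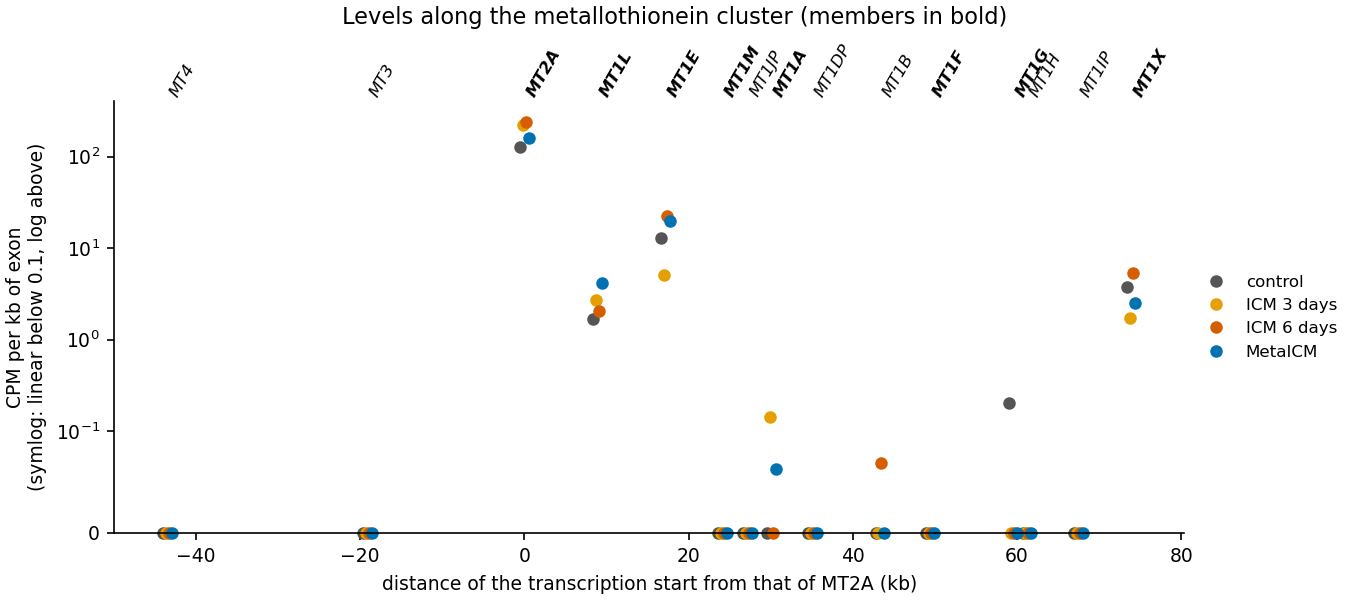
Mean level of each metallothionein gene on chromosome 16 (CPM per kilobase of exon, symmetric log axis that is linear below 0.1) against the distance of its transcription start from that of MT2A (kb), with a point for each of the 4 groups and members in bold. MT2A, MT1L, MT1E and MT1X carry the signal, and the genes between them sit at or near 0.

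MT2A, the main form, was raised at both ICM times. Its level was 60.8 and 41.0 CPM in the control libraries, 87.4 and 89.7 CPM at 3 days, 97.3 and 95.1 CPM at 6 days, and 63.8 and 64.4 CPM in MetaICM. Each ICM library was above both controls, and the controls were farther apart than the libraries of any other group. The log2 fold change (log2FC) against control was 0.79 (SE 0.17) at 3 days and 0.91 (SE 0.16) at 6 days. Between the ICM times MT2A differed by a log2FC of 0.12 (SE 0.09). The size of the rise rested on the control libraries. Leaving out the second of them took the log2FC at 3 days down to 0.52 and ended the call, and leaving out the first brought it to 1.11.

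MT1E, a metal-inducible form, first went down and then up. Its level was 9.04 and 10.3 CPM in control, 3.95 and 3.57 CPM at 3 days, 15.7 and 17.9 CPM at 6 days, and 14.0 and 15.7 CPM in MetaICM. The 3-day libraries were the lowest of all, the 6-day and MetaICM libraries were all above control, and the control libraries lay between. The log2FC was -1.35 (SE 0.23), a 2.55-fold lower level, at 3 days and 0.80 (SE 0.17) at 6 days. From 3 to 6 days MT1E differed by a log2FC of 2.15 (SE 0.17), or 4.42-fold. These are the values by which the set was chosen.

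MT1X, at the far end of the cluster, was likewise lowest at 3 days and highest at 6 days, at a much lower count. Its level was 1.96 and 1.08 CPM in control, 0.598 and 0.809 CPM at 3 days, 2.09 and 2.18 CPM at 6 days, and 0.891 and 1.13 CPM in MetaICM. Both 3-day libraries were below control and both 6-day libraries above it, while MetaICM overlapped with control. The log2FC was -1.17 (SE 0.45) at 3 days and 0.44 (SE 0.35) at 6 days. Between 3 and 6 days it was 1.62 (SE 0.37), or 3.08-fold higher at 6 days. Counts of 12 to 41 pairs per library stood behind these values, and leaving out control replicate 1 changed the first of them to -0.64.

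MT1L, the pseudogene, was highest in MetaICM. Its level was 0.595 and 0.828 CPM in control, 1.10 and 1.21 CPM at 3 days, 0.913 and 0.850 CPM at 6 days, and 1.39 and 2.13 CPM in MetaICM. Both MetaICM libraries were above all others. The log2FC against control was 0.72 (SE 0.45) at 3 days and 0.33 (SE 0.43) at 6 days. It rested on 10 to 49 pairs per library. Leaving out control replicate 1 took these values to 0.47 and 0.08, and leaving out control replicate 2 took them to 0.93 and 0.56.

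**Figure D2:**
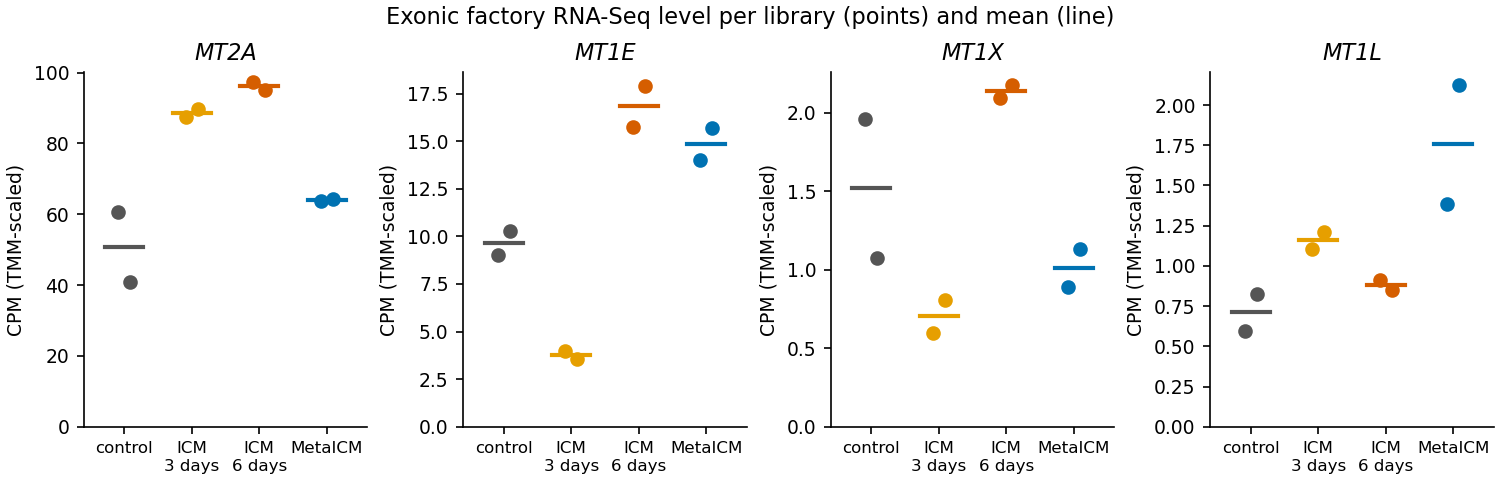
Level of the 4 detected metallothionein genes (CPM on TMM-scaled totals, axes from 0) in each of the 8 libraries, as points, with the mean of the 2 libraries of a group as a line. MT1E and MT1X are lowest at 3 days and highest at 6 days, MT2A is high at both ICM times, and MT1L is highest in MetaICM.

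A gene was called where edgeR's quasi-likelihood test gave a Benjamini-Hochberg adjusted p under 0.05 with an absolute log2FC over 0.6. At 3 days MT2A was called higher and MT1E lower, which makes 2 of 4 members tested, where 22% of all 15692 genes tested were called, 8.85% higher and 13.2% lower. At 6 days MT2A and MT1E were called higher, again 2 of 4, where 30.5% of all genes were called, 13.3% higher and 17.2% lower. Between the ICM times MT1E and MT1X were called higher at 6 days, 2 of 4 where 8.07% of all genes were called, 3.53% higher and 4.54% lower. These contrasts chose the members, so the calls only describe which values lay past the limits, and nothing is read from their number.

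The summed level of the 8 genes was 72.4 and 53.3 CPM in control, 93.1 and 95.3 CPM at 3 days, 116 CPM in both 6-day libraries, and 80.1 and 83.3 CPM in MetaICM. Its make-up was not constant. MT1E took 12.5% (exact 95% binomial interval 10.7 to 14.5) and 19.3% (16.3 to 22.5) of the metallothionein pairs in the control libraries. At 3 days it took 4.25% (3.41 to 5.22) and 3.75% (2.82 to 4.87). The share was 13.6% (12.1 to 15.1) and 15.4% (13.9 to 17.0) at 6 days, and 17.5% (15.7 to 19.4) and 18.8% (17.1 to 20.6) in MetaICM. The low 3-day level of MT1E chose the set, so its low share at that time is a description. These shares are taken within a library and do not depend on its scaling, and the intervals cover counting error only.

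**Figure D3:**
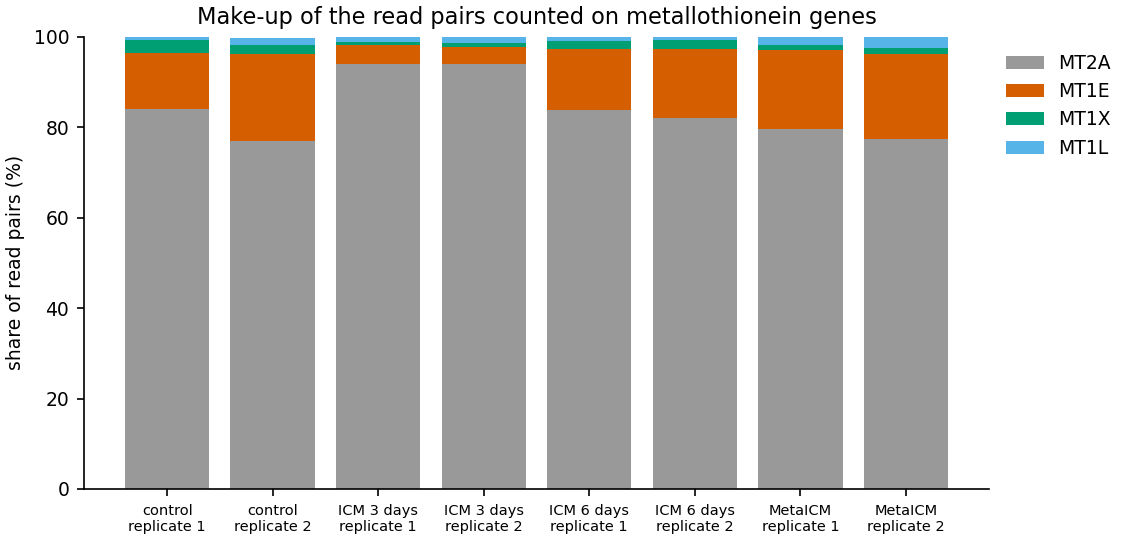
Share of the read pairs counted on metallothionein genes (%, stacked bars from 0 to 100) that fell on MT2A, MT1E, MT1X and MT1L in each of the 8 libraries. The MT1E segment is 4.25% and 3.75% in the 3-day libraries and at least 12.5% in every other.

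The MetaICM libraries took no part in choosing the genes. The groups they were compared with did, through MT1E, so MT1E is given without a p-value here as well. Against control, MT1E was 1.54-fold higher in MetaICM, with a log2FC of 0.62 (SE 0.16) and both libraries above both controls. This value sits just past the fold limit, and it fell short of a call without 3 of the 4 libraries in turn, with a log2FC between 0.54 and 0.73. MT1L was 2.52-fold higher (log2FC 1.33, SE 0.42, edgeR adjusted p = 0.0377). That call was lost without 3 of the 4 libraries in turn, and DESeq2 gave an adjusted p of 0.131. MT2A had a log2FC of 0.32 (SE 0.16, edgeR adjusted p = 0.163) and was not called. It was called without control replicate 1, at a log2FC of 0.65. For MT1X the log2FC was -0.62 (SE 0.40, edgeR adjusted p = 0.265) and the groups overlapped. Past the limits were 2 of 4 members, MT1E and MT1L, where 16.4% of all genes tested were called, 7.41% higher and 8.99% lower. The control libraries took part in choosing MT1E, so nothing is read from this count.

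Against 6 days of ICM, MT1E in MetaICM had a log2FC of -0.18 (SE 0.12). MT2A was lower, with both MetaICM libraries below both 6-day libraries (log2FC -0.59, SE 0.07, edgeR adjusted p = 7.64e-07), which falls short of the fold limit. MT1X was called lower at a log2FC of -1.07 (SE 0.31, edgeR adjusted p = 0.00592). MT1L was called higher at a log2FC of 1.00 (SE 0.35, edgeR adjusted p = 0.0191). Neither of these low-count calls was made by DESeq2, with an adjusted p of 0.0588 for MT1X and 0.13 for MT1L. Without MetaICM replicate 1 the MT1X call was lost, and without MetaICM replicate 2 or the second 6-day library that of MT1L. Members called were 2 of 4, where 27.7% of all genes were called, 15.7% higher and 12% lower.

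Against 3 days of ICM, MT1E was 3.93-fold higher in MetaICM (log2FC 1.98, SE 0.17), a description because its low 3-day level chose it. It lay past the limits for a call, as did 23.4% of all genes (13.1% higher and 10.3% lower), and nothing is read from this. MT2A was lower by a log2FC of -0.46 (SE 0.08, edgeR adjusted p = 0.000511), under the fold limit. MT1X, at a log2FC of 0.56 (SE 0.41, edgeR adjusted p = 0.287), and MT1L, at a log2FC of 0.62 (SE 0.34, edgeR adjusted p = 0.16), were not called.

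**Figure D4:**
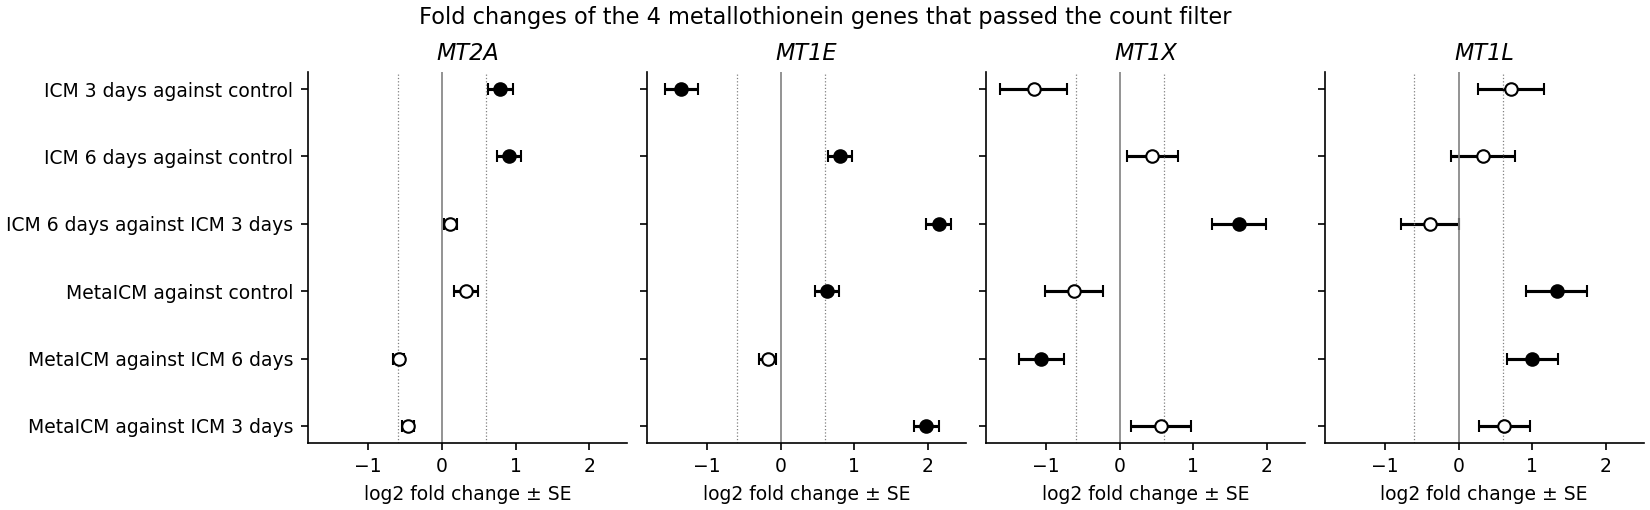
Log2 fold change with its standard error for the 4 detected metallothionein genes in the 6 comparisons, filled where called and open where not, with dotted lines at the fold limit of 0.6. MT1E lies at -1.35 for 3 days and at 0.80 for 6 days against control, while MT2A lies at 0.79 and 0.91.

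The genes that sense and move zinc were looked at next to the members. MTF1, the zinc-sensing activator of metallothionein genes, was at 22.3 and 25.1 CPM in control, 23.2 and 23.3 CPM at 3 days and 23.9 and 22.5 CPM at 6 days. Its log2FC was -0.03 at both times (SE 0.15 at 3 days and 0.14 at 6 days). In MetaICM it was at 17.4 and 16.8 CPM, with a log2FC of -0.47 (SE 0.14, edgeR adjusted p = 0.0295) that stayed under the fold limit. SLC30A1, the zinc exporter of the plasma membrane and another known MTF1 target, was at 67.3 and 56.7 CPM in control, 74.7 and 65.6 CPM at 3 days, 148 and 138 CPM at 6 days and 70.4 and 59.8 CPM in MetaICM. Only the 6-day libraries stood apart. Its log2FC against control was 0.18 (SE 0.14, edgeR adjusted p = 0.386) at 3 days and 1.20 (SE 0.12, edgeR adjusted p = 3.17e-05) at 6 days. From 3 to 6 days SLC30A1 rose by a log2FC of 1.02 (SE 0.10, edgeR adjusted p = 3.71e-07).

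Across the list of zinc genes, 0 of 18 tested rose and 1 fell at 3 days, and 6 rose and 0 fell at 6 days. Of all genes tested, 8.85% rose and 13.2% fell at 3 days, and 13.3% rose and 17.2% fell at 6 days. The median log2FC was 0.08 at 3 days and 0.17 at 6 days, against 0.01 and 0.00 over all genes tested. The gene that fell at 3 days was SLC39A14, a zinc and manganese importer, with a log2FC of -0.83 (edgeR adjusted p = 0.00147). At 6 days SLC39A7, which releases zinc from the endoplasmic reticulum, rose by 0.93 (edgeR adjusted p = 0.000685). The importer SLC39A10 rose by 0.89 on the same log2FC scale (edgeR adjusted p = 0.000108). In MetaICM 1 of 18 zinc genes rose against control and none fell. Of 11 copper genes tested at 3 days 3 rose, and of 10 tested at 6 days 5 rose, and none fell at either time. In MetaICM 4 of 11 copper genes rose against control and none fell, where 7.41% of all genes rose. SOD1, the copper and zinc superoxide dismutase, rose by a log2FC of 1.03 at 3 days, 1.22 at 6 days and 1.01 in MetaICM (edgeR adjusted p = 0.000476, 6.73e-05 and 0.00169).

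Genes listed as targets of NRF2, the activator of the oxidative stress response, rose at both ICM times. Called higher were 10 of 11 at 3 days and 10 of 11 at 6 days, where 8.85% and 13.3% of all genes were. The median log2FC of the 11 genes was 2.03 and 1.99. The list also held NFE2L2, the gene of NRF2 itself, and KEAP1, the inhibitor of NRF2. NFE2L2 was the gene not called at either time, at a log2FC of 0.090 and 0.155. HMOX1, the haem-degrading oxygenase, was at 36.2 and 14.7 CPM in control, 322 and 283 CPM at 3 days and 425 and 426 CPM at 6 days. In MetaICM, at 19.8 and 18.2 CPM, HMOX1 was in the range of control. Of the 11 genes on this list 0 rose and 1 fell in MetaICM, where 7.41% of all genes rose and 8.99% fell.

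The list of genes induced by glucocorticoids, which also held the receptor gene NR3C1, was split. At 3 days 5 of 11 tested rose and 3 fell, and at 6 days 2 of 12 rose and 5 fell, where 22% and 30.5% of all genes were called. FKBP5, a co-chaperone of the glucocorticoid receptor, fell by a log2FC of 1.24 at 3 days (edgeR adjusted p = 0.000513). HSD11B1, the enzyme that regenerates cortisol, rose by a log2FC of 3.04 at 3 days and 2.38 at 6 days (edgeR adjusted p = 1.85e-06 and 4.1e-05). NR3C1, the receptor itself, had a log2FC of 0.03 (edgeR adjusted p = 0.888) at 3 days and -0.35 (edgeR adjusted p = 0.0219) at 6 days. In MetaICM 1 of 11 tested genes of this list rose and 4 fell against control, where 7.41% of all genes rose and 8.99% fell. There NR3C1 had a log2FC of -0.57 (edgeR adjusted p = 0.00397), under the fold limit. Among heat shock genes 1 of 9 was called higher at 3 days, 2 of 8 at 6 days, and 1 of 8 in MetaICM, with none lower in these 3 comparisons with control, where 22%, 30.5% and 16.4% of all genes were called.

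**Figure D5:**
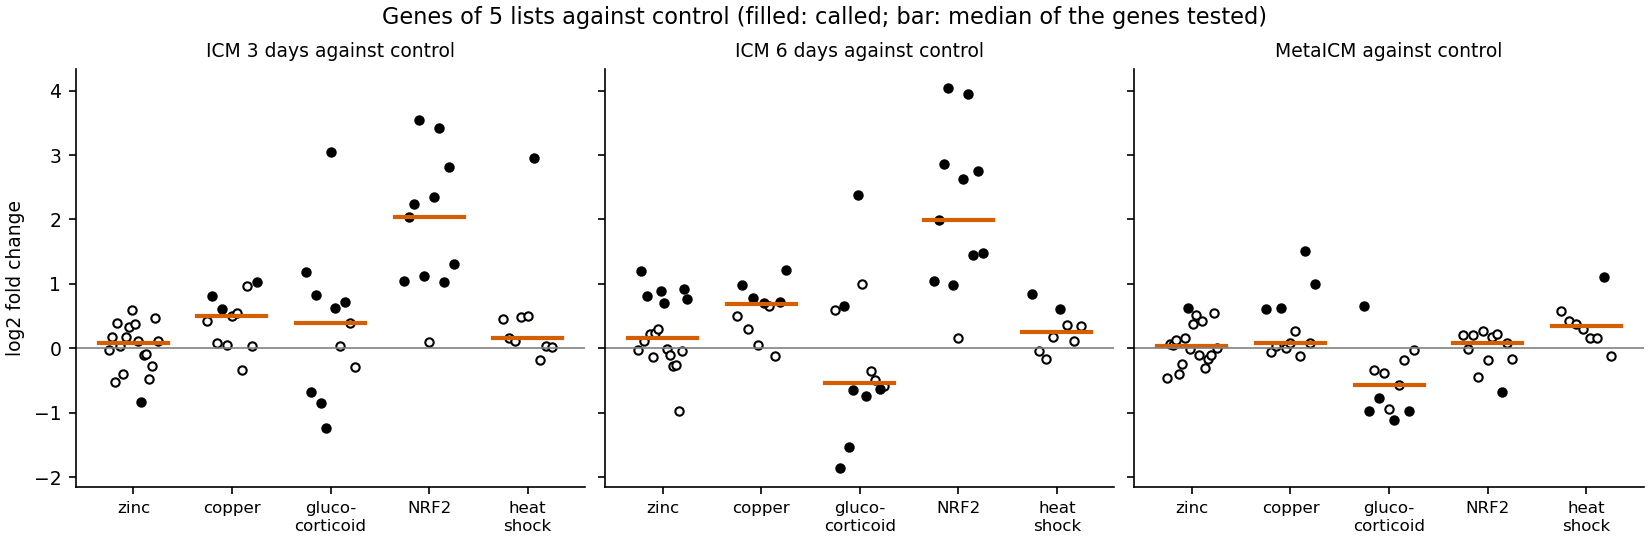
Log2 fold changes against control of the genes of 5 lists (zinc sensing and transport, copper handling, glucocorticoid-induced, NRF2 targets, heat shock) at 3 days of ICM, 6 days of ICM and in MetaICM, filled where called, with the median of the genes tested as a bar. The NRF2 median is 2.03 at 3 days, 1.99 at 6 days and 0.08 in MetaICM.

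The genes around the cluster were also counted. Of 17 genes within 500 kb of the outermost members, 11 were tested at 3 days, of which 0 rose and 2 fell, and 10 at 6 days, of which 0 rose and 4 fell. These counts are too small to be set apart from the 22% and 30.5% of all genes called. Over all genes tested 8.85% were higher and 13.2% lower at 3 days, and 13.3% were higher and 17.2% lower at 6 days. HERPUD1, a gene of endoplasmic reticulum protein degradation, fell by a log2FC of 0.98 at 3 days and by 0.82 at 6 days (edgeR adjusted p = 0.000261 and 0.000338). NUP93, a nuclear pore protein, fell by 0.80 at 3 days and by 0.64 at 6 days on the same scale (edgeR adjusted p = 0.0011 and 0.00235). In MetaICM CPNE2 was called lower against control, by a log2FC of -0.85 (edgeR adjusted p = 0.00962).

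The genes whose log2 CPM over the 8 libraries was most like that of MT2A, among 16587 genes, were LCMT2, COLEC10, FADS2, DEPDC7 and PKM, with Pearson's r from 0.990 for PKM to 0.992 for LCMT2. FADS2, a fatty acid desaturase, went from 139 CPM in control to 324, 332 and 206 CPM in the 3-day, 6-day and MetaICM means. Those most like MT1E were ASS1 (r = 0.99), WNT3, CADPS2, RTN1 and IGIP (r = 0.96). ASS1, which makes argininosuccinate in the urea cycle, averaged 54.0 CPM in control, 33.2 CPM at 3 days, 74.8 CPM at 6 days and 71.9 CPM in MetaICM. Over the same libraries r was 0.68 between MT1E and MT1X and -0.15 between MT1E and MT2A. The 8 points fall into 4 pairs of libraries that share a group, so r mainly describes the order of the group means.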

How the data were processed

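Factory RNA-Seq libraries of IMR90 cells were grouped by their titles (control, ICM 3 days, ICM 6 days, MetaICM; n = 2 each). The authors aligned paired-end reads to GRCh37 with STAR (version 2.6.0c) and deposited raw counts of read pairs on RefSeq exons, made with featureCounts (version 1.6.3), without strand and without pairs that mapped to several places or genes. The paper's intronic counts and its removal of unwanted variation were not used here, so exonic and intronic results may differ. The exon length in each table, as deposited, served for levels per kilobase.

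Each pair of groups was fitted with edgeR (version 4.0.16, R 4.3.3; quasi-likelihood test, TMM, filterByExpr with a count minimum of 10) over all genes, with Benjamini-Hochberg adjustment, and genes were called at an adjusted p under 0.05 and an absolute log2FC over 0.6. The fits were tested on simulated data with a single fixed dispersion. Changes were planted only in genes above a mean count, and they were larger than those reported for MT2A. The simulation therefore says little about MT2A or about genes as low as MT1X and MT1L. The SE of a log2FC is its absolute value divided by the square root of the F statistic of the quasi-likelihood test. Levels are CPM on TMM-scaled totals. Alternatives were DESeq2 (version 1.42.0), other scalings and filters, a stricter adjusted p of 0.01, all 8 libraries in one fit, a replicate block, and leaving out each library. Binomial intervals were Clopper-Pearson (scipy 1.17.1). Positions, sequences and motifs were read from GRCh37 at the deposited exon coordinates, with biotypes from GENCODE.

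The members and all gene lists were chosen with earlier results of these data known. Named genes are the members and other metallothionein loci, from each list up to 4 called genes with the largest change per comparison, MTF1, SLC30A1 and NR3C1, called neighbours within 500 kb, and the 5 genes most like MT2A and MT1E. Library totals limit precision most for MT1X and MT1L.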

Additional observations from a re-analysis of the deposited data

Results flagged for a closer look

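MT1E moved in opposite directions at the ICM times: both 3-day libraries were below both controls (log2FC -1.35) and both 6-day libraries above them (log2FC 0.80). The same held for MT1X, at a log2FC of -1.17 at 3 days and 0.44 at 6 days. Both comparisons share the control libraries, the course of MT1E chose the set, and the difference between these effects was not tested.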

How the results depend on the processing

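No metallothionein value changed direction under the alternatives run. Against control, MetaICM members called were 1 with DESeq2, 0 at an adjusted p under 0.01 and 0 to 2 with a library left out (2 as reported). Against 6 days they were 0, 1 and 1 to 2 (2 as reported). List genes called in MetaICM against control were 7 to 16 without a library (12 as reported). Neighbouring genes called in MetaICM against control were 1 with upper-quartile scaling, 1 at an adjusted p under 0.01 and 0 to 2 without a library (2 as reported). They were 1 to 3 without a library against 6 days (1 as reported), and against 3 days 1 with library totals and 1 to 3 without a library (2 as reported). The ratio of MT2A to MT1E per kilobase was 9.97, 43.9, 10.7 and 8.06 in control, 3 days, 6 days and MetaICM, and 5.36, 23.6, 5.75 and 4.33 per kilobase of uniquely matching positions, because the latter uses the spliced MT1E. MT1X at 3 days, not called as reported, was called with all genes, with all 8 libraries in the fit, without control replicate 2 and with the replicate block. MT2A against 6 days passed the fold limit with upper-quartile factors (log2FC -0.61) and with library totals (-0.60). Replicate numbers are shared names and no label pairs them: deviations of same-numbered libraries correlated at -0.11 to 0.17. With the replicate block 3 members were called at 3 days and 2 at 6 days, and other member counts kept their size. Crossing the numbers for MetaICM against 3 days gave 1 member, 20 list genes and 2 neighbours. Median log2FC over all genes moved by less than 0.1 with library totals. MT1X and MT1L, at 10 to 49 pairs, are limited by depth, and control replicate 1 or 2 alone moved MT2A, MT1X and MT1L against control by over 1.5 times in at least 1 comparison each.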
